A study of Rattus norvegicus with 6 samples.

Results

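The mitochondrial respiratory chain is described here by the array probe sets whose gene symbol starts with Nduf, Uqcr, Cox4 to Cox8 or Atp5, or is Sdha, Sdhb, Sdhc or Sdhd, and that the platform annotation gives 1 gene. The rule uses symbols and no measured value. It found 106 of the 28879 probe sets, for 100 of the 18166 named genes. Of these genes 75 encode subunits, 8 are the complex I assembly factors Ndufaf1 to Ndufaf8, and 17 are pseudogenes or extra gene copies, whose symbols add -ps, l or b to that of the parent gene. RNA was measured in the thoracic aorta of SHR rats, the inbred spontaneously hypertensive strain, and of WKY rats, the related normotensive strain commonly used as its control. Both strains were 24 weeks old and received no treatment beyond a tail blood pressure reading. The vessels were freed of attached fat and connective tissue before freezing. Each strain had 3 arrays, and since the labels do not say that each array holds 1 animal, the spread between arrays may be technical.

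The respiratory chain of the inner mitochondrial membrane passes electrons from food to oxygen and stores the energy as a proton gradient. Complex I takes electrons from NADH and complex II takes them from succinate, and both hand them to ubiquinone. Complex III passes them to cytochrome c, complex IV passes them to oxygen, and complex V, the ATP synthase, lets protons flow back and makes ATP. Nuclear genes encode most subunits, and the mitochondrial DNA encodes a few of the innermost ones. Arterial smooth muscle also relies on glycolysis, while brown fat, heart and skeletal muscle carry much larger amounts of these complexes.

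Of the 106 probe sets, 98 passed the filter on dim values and were tested, for 93 genes, of which 74 encode subunits: 32 of complex I, 4 of complex II, 7 of complex III, 17 of complex IV and 14 of complex V. The 8 that were too dim belong to Cox7b2, to a second probe set of Cox6b1 and to the copies Ndufb4l1, Ndufb11b, Ndufaf7-ps1, Cox6c-ps1, Cox7cl1 and Atp5mgl4. Ndufa4 and Ndufa4l2, named for complex I, are counted in complex IV, where the Ndufa4 protein is now placed. A gene with several probe sets is represented by its brightest one. All levels are log2 intensities, and all differences are SHR minus WKY on that scale, so -1 is a halving. Levels of different probe sets are not set against each other, since probes differ in how well they bind. The smooth muscle markers were bright on every array, with a mean over 8 genes of 9.16, 9.37 and 9.49 on the SHR arrays and 9.31, 9.42 and 9.48 on the WKY arrays. WKY replicate 3 stood apart over all probe sets, with the narrowest spread of values, an SD of 2.12 against 2.22 to 2.27 on the other 5 arrays.

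No member differed between the strains by the test. With limma and Benjamini-Hochberg adjustment over all 21659 tested probe sets, 15 passed an adjusted p under 0.05, which is 0.0693% of them, and 0 of the 98 tested members did. Of the 15, 13 were higher in SHR and 2 lower, or 0.06% and 0.00923% of those tested. The smallest adjusted p among the members was 0.277, for Ndufv3. At an unadjusted p under 0.05, 4 members lay lower in SHR and 0 higher. Of all tested probe sets 5.55% had such a p, with 2.54% lower and 3.01% higher. These 4 were Ndufv3, Ndufa4l2, Atp5mf and Uqcr11. For 8 of the 74 subunits all 3 SHR arrays lay below all 3 WKY arrays, and for 0 all 3 lay above, against 5.61% and 6.48% of all tested probe sets, or 12.1% in either direction.

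Most subunits nevertheless had a lower mean in SHR. The difference was below 0 for 62 of 74 subunits, or 83.8%, and above 0 for 12, while 52.0% of all tested probe sets were below 0. Over the 6 arrays the median correlation of a subunit with the mean of the others was 0.69. It was above 0.5 for 52 subunits and below 0 for 3, so the 74 are not separate observations. The median difference of the subunits was -0.16 and their mean -0.20, against a median of -0.01 over all tested probe sets and 0.02 over those at or above the 50th percentile of brightness. The mean over the 74 subunits was 6.25, 6.37 and 6.08 on the SHR arrays, against 6.63, 6.33 and 6.34 on the WKY arrays. WKY replicate 1 was highest and SHR replicate 3 lowest, and the strains overlapped, since SHR replicate 2 lay above WKY replicates 2 and 3. The strain means were 6.23 ± 0.15 in SHR and 6.44 ± 0.17 in WKY (SD, n = 3 each).

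The 2 arrays at the ends of the subunit mean were SHR replicate 3 and WKY replicate 1. Since they are the lowest SHR and the highest WKY array, the mean difference had to rise without either. Only the size of that change is a result. SHR replicate 3 was the lowest array for 34 of the 74 subunits, or 45.9%, and for 15.0% of all tested probe sets. WKY replicate 1 was the highest array for 44 subunits, or 59.5%, and for 12.3% of all tested probe sets. Without WKY replicate 1 the mean difference was -0.11, with 48 subunits below 0. Without SHR replicate 3 it was -0.13, with 53 below 0. Without SHR replicate 1, SHR replicate 2, WKY replicate 2 or WKY replicate 3 it lay between -0.27 and -0.21. WKY replicate 3, the array that stood apart, was the highest for 18 subunits, or 24.3%, and the lowest for 21, or 28.4%. The shares were 30.5% and 28.3% of all tested probe sets. They were 23.5% and 38.7% of those at or above the 50th percentile of brightness, where 73 of the 74 subunits lie. In the heat map of subunits WKY replicate 1 is therefore the reddest column and SHR replicate 3 the bluest.

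**Figure D1:**
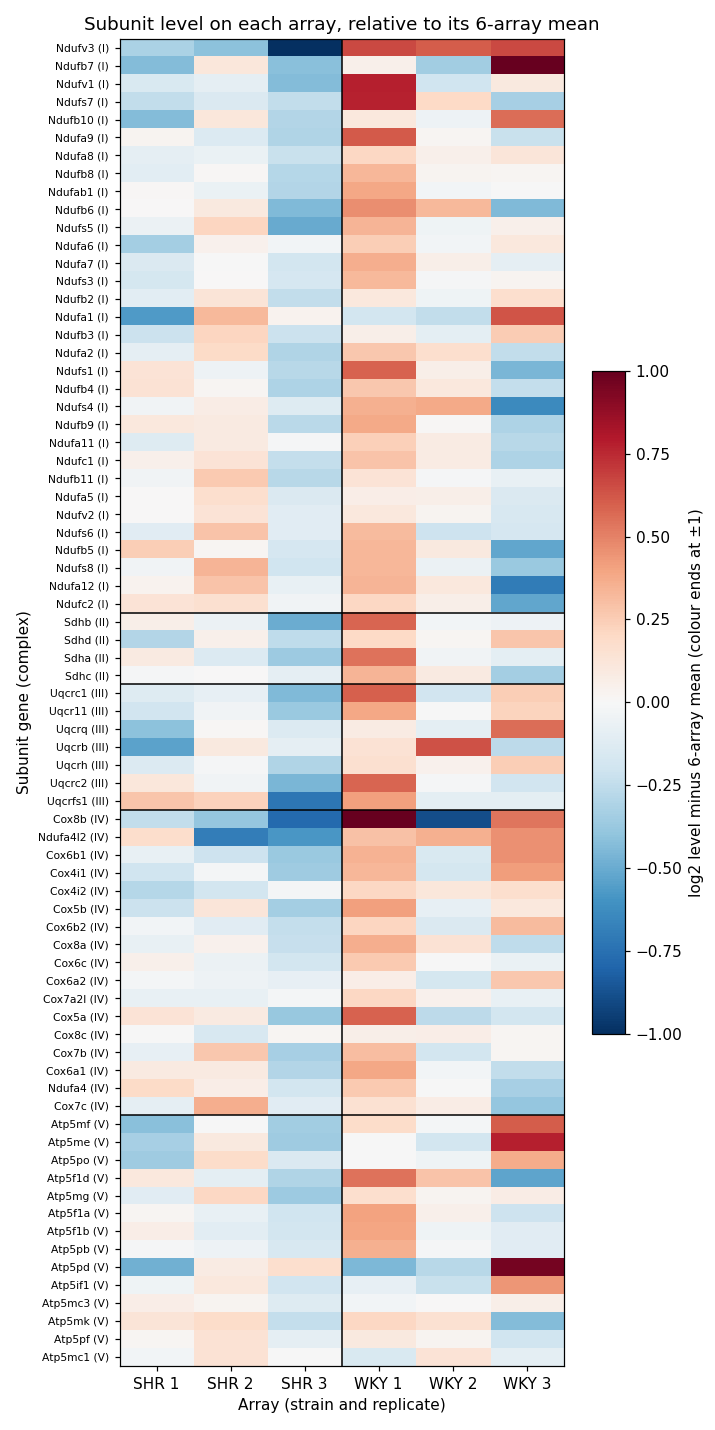
Heat map of the 74 tested subunits, by complex and within a complex by difference, on the 3 SHR arrays and the 3 WKY arrays. Colour is the log2 level minus the gene's mean over the 6 arrays, ending at ±1; the WKY 1 column is red for most rows (highest array for 44 of 74) and the SHR 3 column is blue for most (lowest for 34 of 74).

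Markers of other cells that an aorta can hold or carry varied between the arrays too, and only some of them followed the subunits. The white adipocyte markers, all 12 measured, had a mean level of 7.65, 5.97 and 4.40 on the SHR arrays, against 7.51, 6.06 and 6.18 on the WKY arrays, and 11 of the 12 were lowest on SHR replicate 3. Of these markers 7 were highest on SHR replicate 1 and 5 on WKY replicate 1. Ucp1, the uncoupling protein of brown fat, had levels of 6.86, 5.88 and 1.74 in SHR, against 9.43, 5.35 and 6.92 in WKY. Cidea, a lipid droplet protein abundant in brown fat, had 8.80, 8.34 and 7.34 in SHR, against 10.16, 8.16 and 8.17 in WKY. For Ucp1 and Cidea the highest array was WKY replicate 1 and the lowest was SHR replicate 3, as for the mean of the subunits. Cpt1b had 5.48, 5.03 and 2.45 in SHR, against 7.56, 4.38 and 5.44 in WKY, with the same highest and lowest arrays. Kcnk3 and Ppara had differences of -0.59 ± 0.19 and -0.68 ± 0.49 (SE), with other lowest arrays. Of the 7 tested brown adipocyte markers, 5 had a difference below 0 and 2 above. The 2 above 0 were Dio2 and Ppargc1a. Dio2, the enzyme that activates thyroid hormone, had 3.45, 2.76 and 2.99 in SHR, against 2.37, 2.32 and 2.32 in WKY. Ppargc1a was also higher on all SHR arrays. The mean over the 9 measured brown adipocyte markers, Ppargc1a and Dio2 included, was 4.44, 4.21 and 3.38 in SHR, against 5.21, 4.0 and 4.34 in WKY. Elovl3 and Zic1 among them were too dim to be tested. Over the 7 tested the mean was 5.50, 5.12 and 4.15 in SHR, against 6.47, 4.86 and 5.26 in WKY. The skeletal and cardiac muscle markers, 11 of 15 measured, had a mean of 2.56, 2.68 and 2.67 in SHR, against 3.14, 2.62 and 2.97 in WKY, and were lowest on SHR replicate 1. Ckm, the muscle creatine kinase, had 3.34, 3.37 and 3.49 in SHR, against 4.85, 3.55 and 3.88 in WKY. The means of the endothelial markers were 6.61, 5.31 and 4.68 in SHR, against 6.45, 5.97 and 5.64 in WKY, and 5 of 6 were lowest on SHR replicate 3. The means of the macrophage markers were 6.17, 4.68 and 3.75 in SHR, against 5.48, 4.54 and 4.70 in WKY, with 7 of 8 lowest on SHR replicate 3. The means of the adventitial fibroblast markers were 9.16, 8.65 and 8.05 in SHR, against 8.94, 8.92 and 8.70 in WKY, with 4 of 8 lowest on SHR replicate 3. These 3 lists, like the white adipocyte list, had their highest mean on SHR replicate 1. Markers of sympathetic neurons had a mean of 5.30 on SHR replicate 1 and 2.02 to 2.44 on the other 5 arrays, and those of pancreatic acinar cells a mean of 4.52 on WKY replicate 3 and 2.01 to 3.66 on the others. RMA levels have no true zero, so no marker can be called absent. The part of RNA from these cells in the difference of the subunits was not tested, and in whole tissue fewer cells of a type and less RNA per cell cannot be told apart.

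**Figure D2:**
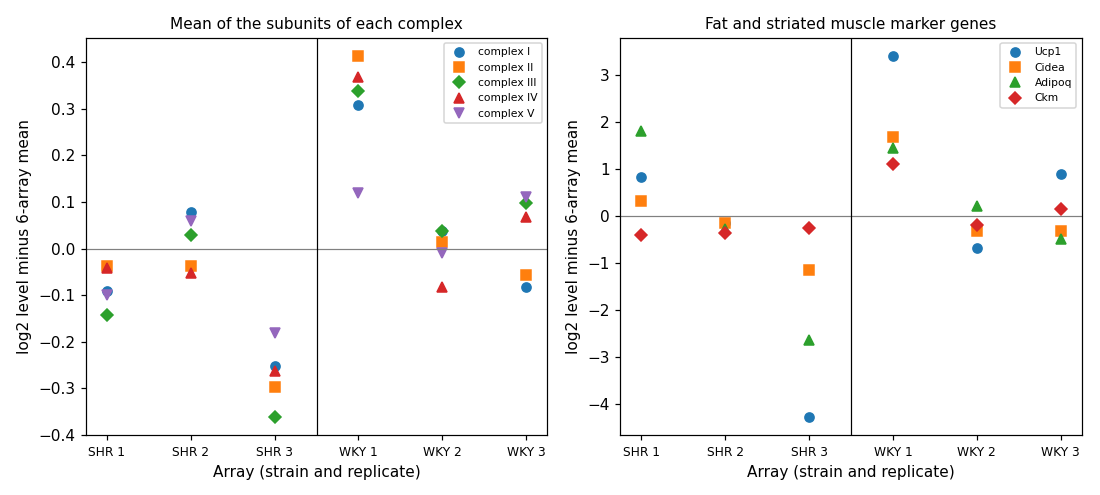
Left, mean log2 level of the subunits of each complex, minus its mean over the 6 arrays, on the 3 SHR arrays and the 3 WKY arrays. Right, the same measure for Ucp1, Cidea, Adipoq and Ckm on a wider scale; all 5 complexes are highest on WKY 1 and lowest on SHR 3, and so are Ucp1 and Cidea, while Adipoq is highest on SHR 1 and Ckm lowest on SHR 1.

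The promoters of several subunit genes are shown because nuclear subunit genes are known targets of the factors NRF1, GABP, ERR and YY1. No motif was compared with the level of a gene on the arrays, so a link between them was not tested. RefSeq promoters of build GRCr8, from 250 bases before to 50 bases after the gene start, were present for 67 of the 75 subunit genes. The GABP motif CCGGAAG was in 19 of them, or 28.4%, against 11.2% of 19005 promoters of protein-coding genes of the same length. The YY1 motif ATGGCGG was in 15, or 22.4%, against 6.39%. The ERR motif AAGGTCA was in 10, or 14.9%, against 3.7%. GCATGCGC, a short form of the NRF1 motif, was in 8, or 11.9%, against 3.23%. The CCAAT box was searched by its letters CCAAT and was in 24, or 35.8%, against 38.4%. The TATA letters TATAAA were in 6, or 8.96%, against 13.1%, and ACGTG, the core of the hypoxia response element, in 18, or 26.9%, against 20.4%. All were searched on both strands, none of these motifs lies inside another, and a match is a string of letters, not a measured binding site. The median GC share was 56% in the subunit promoters and 55.3% in all. The stretches below are the 100 bases before the start of 6 members, each with the match named here in capitals: the short NRF1 form in Uqcrc1, GABP in Uqcrh and Sdhd, GABP and then ERR in Atp5f1a, YY1 in Atp5f1b and TATAAA in Cox8b. A CCAAT match in Atp5f1b and an ACGTG match in Cox8b, also within these stretches, are left in lower case. The capitals in Uqcrc1, Uqcrh, Sdhd and Atp5f1a spell the opposite strand of the motif. They were chosen from complexes II to V for holding a match, and Cox8b, a tissue isoform, is the one of the 6 without a GABP, ERR, YY1 or NRF1 match in its stretch.
Uqcrc1 (chr8:118468123-118468222, plus strand): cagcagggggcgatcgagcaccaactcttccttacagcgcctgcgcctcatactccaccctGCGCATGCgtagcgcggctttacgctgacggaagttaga
Uqcrh (chr5:134790883-134790982, minus strand): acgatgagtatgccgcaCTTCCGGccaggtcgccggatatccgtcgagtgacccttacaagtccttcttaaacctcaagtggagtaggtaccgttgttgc
Sdhd (chr8:59850642-59850741, minus strand): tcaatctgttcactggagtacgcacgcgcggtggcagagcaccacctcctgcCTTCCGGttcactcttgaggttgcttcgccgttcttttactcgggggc
Atp5f1a (chr18:73567437-73567536, plus strand): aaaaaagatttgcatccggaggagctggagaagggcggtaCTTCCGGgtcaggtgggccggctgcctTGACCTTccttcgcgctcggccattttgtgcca
Atp5f1b (chr7:1099958-1100057, plus strand): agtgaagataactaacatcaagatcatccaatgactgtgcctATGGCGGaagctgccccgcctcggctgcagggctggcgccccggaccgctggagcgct
Cox8b (chr1:205408274-205408373, minus strand): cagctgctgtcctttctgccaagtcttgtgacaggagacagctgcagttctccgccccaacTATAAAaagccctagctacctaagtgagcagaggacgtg

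The subunits of complex I had a mean difference of -0.18 and a median of -0.14, with 25 of 32 below 0. Their mean level was 6.06, 6.23 and 5.90 on the SHR arrays, against 6.46, 6.19 and 6.07 on the WKY arrays. SHR replicate 2 lay within the WKY range and SHR replicates 1 and 3 below it. The 6 core subunits, which hold the NADH site, the iron-sulfur clusters and the way to ubiquinone, averaged -0.19, and the 26 accessory subunits, which surround and stabilise the core, averaged -0.17. Without WKY replicate 1 the mean of complex I was -0.07, and without SHR replicate 3 it was -0.09.

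Among the core subunits, Ndufv1, the flavoprotein that oxidises NADH, had levels of 6.65, 6.71 and 6.37 in SHR, against 7.58, 6.60 and 6.90 in WKY, a difference of -0.45 ± 0.26 (SE; adjusted p = 0.923). WKY replicate 1 stood well above the other 5 arrays, and WKY replicate 2 lay inside the SHR range. Ndufs7, the iron-sulfur protein next to the ubiquinone site, had 6.43, 6.53 and 6.43 in SHR, against 7.44, 6.87 and 6.34 in WKY, a difference of -0.42 ± 0.27. Its SHR arrays were close together, while the WKY arrays spanned more than a log2 unit. Ndufs3, a core subunit of the matrix arm, had a difference of -0.22 ± 0.16 and Ndufs1, an iron-sulfur subunit of the NADH arm, of -0.13 ± 0.27. Ndufs8, an iron-sulfur subunit of the ubiquinone module, and Ndufv2, an iron-sulfur subunit beside the NADH site, lay at 0.07 and 0.02.

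Ndufv3, an accessory subunit of the NADH module, had the largest difference of all subunits. Its brighter probe set, 17684372, had 4.83, 4.73 and 3.95 in SHR, against 5.80, 5.75 and 5.80 in WKY, a difference of -1.28 ± 0.24 (SE; limma, adjusted p = 0.277). The strains did not overlap, the WKY arrays agreed closely, and SHR replicate 3 was the lowest. With 1 array left out the difference lay between -1.44 and -1.01, and over all alternatives the adjusted p lay between 0.0926 and 0.728. The other Ndufv3 probe set, 17754014, gave 4.70, 4.59 and 4.52 in SHR, against 4.96, 4.96 and 4.47 in WKY, a difference of -0.19 ± 0.18. There WKY replicate 3 was the lowest of all, so the strains overlapped. In the numbering of the array, which mostly follows the genome, probe set 17684372 has 10 named neighbours. All of them belong to genes of chromosome 13, while Ndufv3 lies on chromosome 20 of GRCr8. RefSeq lists the pseudogene Ndufv3-ps1 on chromosome 13. Which of these sequences the probe set measures was not tested.

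Ndufa8 and Ndufb8, accessory subunits of complex I, also had separate strains. Ndufa8 had 7.67, 7.69 and 7.54 in SHR, against 7.97, 7.81 and 7.88 in WKY, a difference of -0.25 ± 0.14 (adjusted p = 0.923). Ndufb8, of the membrane arm, had 5.65, 5.76 and 5.47 in SHR, against 6.08, 5.78 and 5.77 in WKY, a difference of -0.25 ± 0.16. In Ndufb8 the gap between the strains, from SHR replicate 2 to WKY replicate 3, was far smaller than the spread within either strain. Ndufb7 and Ndufb10, both of the membrane arm, had differences of -0.49 ± 0.35 and -0.40 ± 0.22, and both were highest on WKY replicate 3, without which they were -0.10 and -0.23. Ndufb9, another membrane subunit, had a difference of -0.05 ± 0.22. The accessory subunits with the highest values were Ndufa12 and Ndufc2, each at 0.17, and both were lowest on WKY replicate 3, without which they were -0.14 and -0.05. Ndufb3 gave -0.14 ± 0.18 on its brighter probe set and -0.10 ± 0.20 on the other. Of the named neighbours of the brighter one, 6 of 10 lie on chromosome 2, where RefSeq lists Ndufb3l2, while Ndufb3 is on chromosome 9. With neighbours of mixed chromosomes, the numbering does not place this probe set. The other 17 accessory subunits lay between -0.27 (Ndufa9) and 0.06 (Ndufb5).

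The 8 complex I assembly factors help to build the complex and are not part of it. They had a mean difference of -0.08, with 5 of 8 below 0, and none was highest on WKY replicate 1. For 3 of the 8 the strains did not overlap, with SHR lower, as for 5.61% of all tested probe sets. Ndufaf3 had 5.20, 5.39 and 5.38 in SHR, against 5.67, 5.51 and 5.70 in WKY, a difference of -0.31 ± 0.14. Ndufaf6 had 4.0, 4.04 and 4.01 in SHR, against 4.37, 4.15 and 4.46 in WKY, a difference of -0.31 ± 0.15. Ndufaf8 had 5.48, 5.62 and 5.61 in SHR, against 5.68, 5.77 and 6.10 in WKY, a difference of -0.28 ± 0.16. In all 3 the SHR arrays were close together and below every WKY array, and the adjusted p was 0.923 for each. Ndufaf1, Ndufaf4 and Ndufaf5 lay above 0, at 0.18, 0.11 and 0.09.

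**Figure D3:**
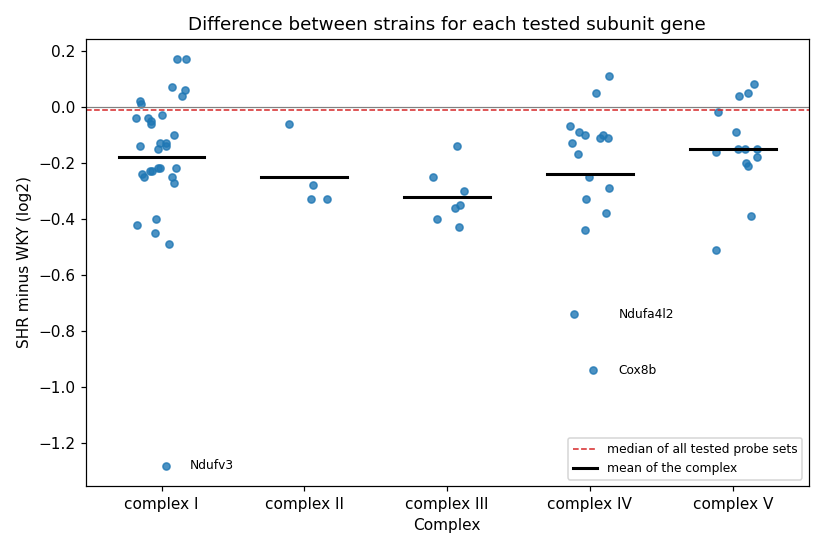
Difference between the strains, SHR minus WKY on the log2 scale, for each of the 74 tested subunits in complexes I to V, with the mean of each complex as a black bar and the median of all tested probe sets (-0.01) as a dashed line. Most points lie below 0 in every complex; Ndufv3, Cox8b and Ndufa4l2 lie farthest down.

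Complex II, succinate dehydrogenase, links the chain to the citric acid cycle and is encoded by nuclear genes alone. Its 4 subunits had a mean level of 7.37, 7.37 and 7.11 in SHR, against 7.82, 7.42 and 7.35 in WKY, a mean difference of -0.25 with all 4 below 0. SHR replicate 3 was the lowest array and WKY replicate 1 was well above the other 5. Without WKY replicate 1 the mean was -0.10, and without SHR replicate 3 it was -0.16. Sdhd, a membrane anchor, had 6.89, 7.23 and 6.93 in SHR, against 7.38, 7.20 and 7.46 in WKY, a difference of -0.33 ± 0.16 (adjusted p = 0.923). SHR replicate 2 lay just above WKY replicate 2, so the strains overlapped. Sdhb, the iron-sulfur subunit, had a difference of -0.33 ± 0.23 and Sdha, the flavoprotein that oxidises succinate, of -0.28 ± 0.22. Sdhc, the other anchor, had -0.06 ± 0.20.

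Complex III had the lowest mean difference of the 5, -0.32, with a median of -0.35 and 7 of 7 subunits below 0. The mean level was 6.42, 6.59 and 6.20 in SHR, against 6.90, 6.60 and 6.66 in WKY. All 3 SHR arrays lay below the WKY arrays, though SHR replicate 2 came within 0.01 of WKY replicate 2. The lowest mean with 1 array left out was -0.41, without SHR replicate 2, and the highest was -0.22, without SHR replicate 3. Uqcr11, a small accessory subunit, had 7.61, 7.77 and 7.43 in SHR, against 8.19, 7.80 and 8.03 in WKY, a difference of -0.40 ± 0.17 (adjusted p = 0.899). Uqcrh, the hinge protein that contacts cytochrome c1, had 8.28, 8.40 and 8.11 in SHR, against 8.57, 8.46 and 8.66 in WKY, a difference of -0.30 ± 0.15 (adjusted p = 0.923). In both the strains did not overlap, and SHR replicate 3 was lowest. Uqcrc1 and Uqcrc2, the large core proteins of the matrix side, had differences of -0.43 ± 0.23 and -0.25 ± 0.25. Uqcrq and Uqcrb, both small accessory subunits, had -0.36 ± 0.21 and -0.35 ± 0.27. Uqcrfs1, the Rieske iron-sulfur protein that takes electrons from ubiquinol, had 5.59, 5.54 and 4.59 in SHR, against 5.72, 5.21 and 5.21 in WKY, a difference of -0.14 ± 0.30. Only SHR replicate 3 was low for it, and without that array the difference was 0.19.

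Complex IV, cytochrome c oxidase, had a mean difference of -0.24 and a median of -0.13, with 15 of 17 subunits below 0. The mean level was 5.80, 5.79 and 5.58 in SHR, against 6.21, 5.76 and 5.91 in WKY. WKY replicate 2 lay below SHR replicates 1 and 2, so the strains overlapped. Without WKY replicate 1 the mean was -0.12. Several subunits of this complex exist as isoforms that differ between tissues, and these are given pair by pair.

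For subunit 4, Cox4i1, the common isoform, had 7.78, 7.96 and 7.62 in SHR, against 8.31, 7.80 and 8.40 in WKY, a difference of -0.38 ± 0.20 (adjusted p = 0.923). Cox4i2, the isoform of lung and of vascular cells with a known tie to oxygen, had 4.15, 4.25 and 4.41 in SHR, against 4.64, 4.55 and 4.60 in WKY, a difference of -0.33 ± 0.14 (adjusted p = 0.903). The Cox4i2 strains did not overlap, and unlike most members its lowest array was SHR replicate 1. Ndufa4l2, the hypoxia-induced relative of Ndufa4, had 3.45, 2.58 and 2.69 in SHR, against 3.57, 3.63 and 3.73 in WKY, a difference of -0.74 ± 0.24 (adjusted p = 0.758). All WKY arrays were close together, and SHR replicate 1 lay just under them, so the difference rests on SHR replicates 2 and 3. Without SHR replicate 1 it was -1.01, and without SHR replicate 2 it was -0.57. Ndufa4 itself had a difference of 0.05 ± 0.20.

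Cox8b, the subunit 8 isoform of heart, skeletal muscle and brown fat, had 3.29, 3.15 and 2.76 in SHR, against 5.29, 2.65 and 4.07 in WKY, a difference of -0.94 ± 0.59 (adjusted p = 0.923). WKY replicate 1 was the highest array and WKY replicate 2 the lowest of all 6. Without WKY replicate 1 the difference was -0.29, and without WKY replicate 2 it was -1.62. Its high array was also the highest for Ucp1 and Ckm. Cox8a, the common isoform, had 8.21, 8.33 and 8.05 in SHR, against 8.65, 8.43 and 8.03 in WKY, a difference of -0.17 ± 0.20. Cox8c, an isoform described in testis, was near the lower limit of the filter, with 1.24, 1.08 and 1.26 in SHR, against 1.30, 1.31 and 1.26 in WKY. Its strains were separate by less than the second decimal.

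The other isoform pairs of complex IV had smaller differences, apart from Cox6b1. Cox6a1, the common isoform, had a difference of -0.07 ± 0.21 and Cox6a2, that of heart and skeletal muscle, of -0.11 ± 0.16. Cox6b1 had 6.03, 5.90 and 5.73 in SHR, against 6.45, 5.95 and 6.56 in WKY, a difference of -0.44 ± 0.20 (adjusted p = 0.921), and the testis isoform Cox6b2 had -0.25 ± 0.17. The Cox6b1 probe set is another one whose 10 named neighbours lie on a chromosome other than that of its gene: they are on chromosome 2, where RefSeq lists Cox6b1-ps1, while Cox6b1 is on chromosome 1. Its second probe set was too dim to be tested. Cox7a2l, a factor of supercomplex assembly, had -0.11 ± 0.14 and Cox7b -0.09 ± 0.21. Cox7a1, the muscle isoform of subunit 7a, was not analysed here. Cox5b, which binds zinc in the matrix part, had -0.29 ± 0.19. Cox5a, the partner subunit, had -0.10 ± 0.27 on 2 probe sets with identical values, counted once, and 0.01 ± 0.27 on another. Of the named neighbours of the identical 2, 7 of 10 and 5 of 10 lie on chromosome 3, while Cox5a is on chromosome 8. Neighbours in this part of the numbering are of mixed chromosomes, so the numbering does not place these 2 probe sets. Cox6c and Cox7c, small membrane subunits, had -0.13 and 0.11.

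**Figure D4:**
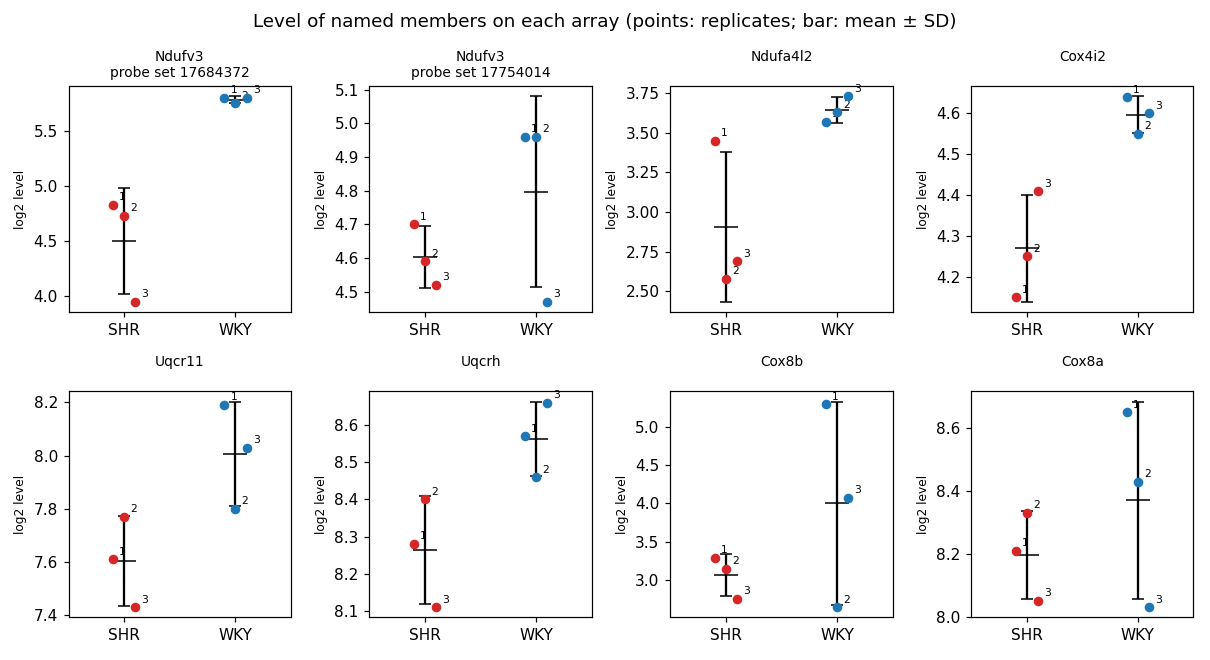
Log2 level on each array of Ndufv3 (both probe sets), Ndufa4l2, Cox4i2, Uqcr11, Uqcrh, Cox8b and Cox8a, with SHR at the left and WKY at the right of each panel; points are arrays with their replicate number, and bars are mean ± SD (n = 3). Each panel has its own scale, which does not start at 0; the strains are apart for 5 of the panels and overlap for Ndufv3 probe set 17754014, Cox8b and Cox8a.

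Complex V had the mean difference nearest to 0, -0.15, with the same median and 11 of 14 subunits below 0. The mean level was 6.83, 6.99 and 6.75 in SHR, against 7.05, 6.92 and 7.04 in WKY. SHR replicate 2 lay above WKY replicate 2, and no single array was the highest for most subunits. With 1 array left out the mean lay between -0.21, without SHR replicate 2, and -0.09, without SHR replicate 3. The 3 measured subunits of the catalytic head averaged -0.17: Atp5f1a, the alpha subunit, had a difference of -0.16 ± 0.19, Atp5f1b, the catalytic beta subunit, of -0.15 ± 0.18, and Atp5f1d, the delta subunit, of -0.20 ± 0.28. All 3 were highest on WKY replicate 1. The 4 peripheral stalk subunits, which hold the head still, averaged -0.12. Among them Atp5po, the oligomycin sensitivity protein, had -0.21 ± 0.20, and Atp5pd had -0.15 ± 0.38. The 10 named neighbours of the Atp5pd probe set lie on chromosome 5, where RefSeq lists Atp5pd-ps1, and not on chromosome 10 with its gene.

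The 6 subunits of the membrane part averaged -0.16 and differed among themselves. Atp5mf, which encodes subunit f, had 4.69, 5.10 and 4.76 in SHR, against 5.29, 5.09 and 5.71 in WKY, a difference of -0.51 ± 0.21 (adjusted p = 0.886). SHR replicate 2 lay 0.01 above WKY replicate 2, so the strains overlapped. Atp5me, which encodes subunit e of the dimer interface, had 6.94, 7.37 and 6.92 in SHR, against 7.27, 7.09 and 8.05 in WKY, a difference of -0.39 ± 0.27. It was highest on WKY replicate 3, and without that array the difference was -0.10. Atp5mc1 and Atp5mc3, genes of the proton-carrying c ring, had 0.08 ± 0.15 and -0.02 ± 0.14. Atp5mk, a small membrane subunit, had 0.04 ± 0.22 and, on its dimmer probe set, 0.05 ± 0.19. The dimmer one has neighbours on chromosome 10, where RefSeq lists 3 copies, while Atp5mk is on chromosome 1. Atp5if1, the protein that stops the synthase from running backwards, had -0.09 ± 0.21.

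The 11 tested pseudogenes and copies averaged -0.06, with 6 of 11 below 0. For Atp5mgl3 and Uqcr10-ps1 the strains did not overlap, with differences of -0.39 ± 0.22 and -0.23 ± 0.15. Of all tested probe sets 5.61% had all SHR arrays below all WKY arrays. The other 9 lay between -0.17 (Uqcr11l1) and 0.32 (Atp5mc1l1). Such copies can share probe sequence with their parent genes, so their levels and those of the parents are uncertain where the sequences are near identical. Of all 106 members, 90.6% stood among neighbours of their own chromosome in the numbering of the array, against 98.4% of 18394 named probe sets. The rest of the members include probe sets of Cox5a, Ndufb3, Ndufaf7-ps1, Atp5mgl4 and Cox7cl1. These had 4 to 7 of 10 neighbours on any 1 chromosome, so the numbering does not place them.

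**Figure D5:**
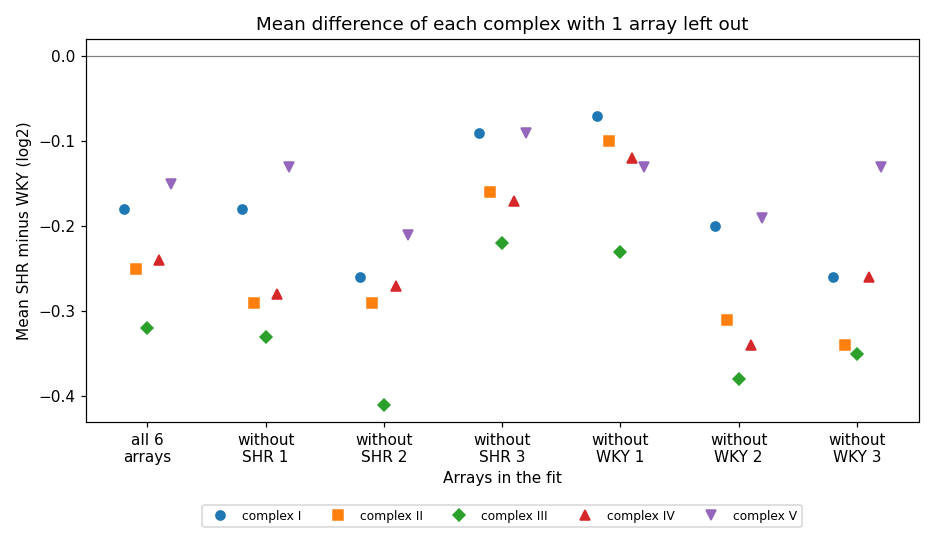
Mean difference between the strains, SHR minus WKY on the log2 scale, over the subunits of each complex, with all 6 arrays and with each array left out in turn. All points lie below 0; complexes I, II and IV come nearest to 0 without WKY 1, at -0.07, -0.10 and -0.12.

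The 3 analysed subunits encoded in the mitochondrial DNA had differences above 0, each smaller than its SE, where most nuclear subunits were below 0. These were COX1, COX2 and COX3, the catalytic core of complex IV, out of 13 such genes. COX1 had 11.79, 11.69 and 11.80 in SHR, against 11.67, 11.69 and 11.68 in WKY, a difference of 0.08 ± 0.13. COX2 and COX3 had 0.11 ± 0.19 and 0.04 ± 0.13, and none of the 3 passed. The other 10 were not analysed here.

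Genes that act next to the chain are given by list. Of 14 measured genes of the citric acid cycle and pyruvate dehydrogenase, 13 were below 0 and 1 above, none passed, and all 14 were highest on WKY replicate 1. Idh2, the mitochondrial NADP-dependent isocitrate dehydrogenase, had 7.85, 8.12 and 7.93 in SHR, against 8.43, 8.32 and 8.23 in WKY, a difference of -0.36 ± 0.15 (adjusted p = 0.889), and its strains did not overlap. Mdh2, the malate dehydrogenase of the cycle, had -0.41 ± 0.24. Of 13 electron carriers and coenzyme Q synthesis genes, 12 were below 0 and none passed. Coq8a, a kinase-like protein of coenzyme Q synthesis, had 4.97, 4.46 and 3.19 in SHR, against 6.57, 4.72 and 5.21 in WKY, a difference of -1.29 ± 0.58 (adjusted p = 0.919). Its highest and lowest arrays were again WKY replicate 1 and SHR replicate 3. Coq9, a lipid-binding protein of the same pathway, had -0.43 ± 0.23.

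Other mitochondrial lists were spread on both sides of 0. Of 37 measured assembly factors of the complexes, 18 were below 0 and 19 above, and none passed. Cox10, an enzyme on the way to the heme of complex IV, had -0.47 ± 0.15, and Pet100, a complex IV assembly factor, had 0.50 ± 0.17. Of 11 genes of the mitochondrial membranes and carriers, 3 were below 0 and 8 above. Tomm22 and Tomm20, receptors of the outer membrane import pore, had 0.19 ± 0.21 and 0.12 ± 0.14. Of 15 regulators of mitochondrial biogenesis, 8 were below 0 and 7 above, and none passed. Ppargc1a, the coactivator PGC-1alpha that drives expression of respiratory genes, had 4.66, 5.01 and 5.40 in SHR, against 4.11, 4.29 and 4.18 in WKY, a difference of 0.83 ± 0.21 (adjusted p = 0.508). Its strains did not overlap, and its highest array, SHR replicate 3, was the lowest for the mean of the subunits. Tfb2m, a factor of mitochondrial transcription, had 4.81, 4.76 and 4.53 in SHR, against 4.05, 4.31 and 3.51 in WKY, a difference of 0.74 ± 0.22 (adjusted p = 0.686). Both lay higher in SHR on every array. Ppargc1b and Nrf1 lay below 0, at -0.49 ± 0.19 and -0.28 ± 0.15, and the Nrf1 strains did not overlap. Gabpa and Gabpb1 had 0.13 and -0.00, Yy1 had -0.00, and Esrra, Esrrb and Esrrg had -0.18, -0.01 and 0.07. A link between the level of a regulator and that of the subunits was not tested.

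Of 10 measured glycolysis genes, 6 were below 0 and 4 above, and none passed. Pfkl, the liver-type phosphofructokinase, averaged 5.33 ± 0.07 in SHR and 4.09 ± 0.43 in WKY (SD, n = 3 each), a difference of 1.24 (adjusted p = 0.261). Pfkm, the muscle type, averaged 5.75 ± 0.20 in SHR and 6.27 ± 0.04 in WKY, a difference of -0.52. The 2 forms of this enzyme thus lay on opposite sides of 0.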

How the data were processed

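Total RNA of thoracic aorta from 3 SHR and 3 WKY samples was hybridised to Affymetrix rat gene arrays. Per the submitters' processing notes, the authors used Affymetrix Expression Console, version 1.2.1, and RMA. The deposited values are log2 intensities per probe set: RMA subtracts background, quantile-normalizes the arrays and summarizes probes. Build and annotation of the probe sets: not given in the sources used here.

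Of 28879 probe sets, 18511 have 1 gene in the platform annotation, 575 several and 9793 are not listed. All 106 members matched RefSeq (GRCr8) by Entrez identifier, with symbols unchanged. Probe sets with a mean over the 6 arrays at or above the 25th percentile, 1.17, were tested (21659; 7220 left out). The model, in limma (version 3.58.1, R 4.3.3), had strain as its single term, moderated by eBayes, with two-sided tests and Benjamini-Hochberg adjustment over all tested probe sets. The fit was tested on simulated data. SE is that of the fitted difference, and SD is over 3 arrays. With 3 arrays a strain, the number of arrays limits the precision.

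Named members are, per complex, the 4 smallest p-values, the highest and lowest mean level, members with separate strains, a fixed list of core subunits (without Ndufv2), isoform families and genes with several probe sets; from each list, the 2 smallest p-values. Members, lists and rules were chosen with earlier results of these data known. Members and list genes named beyond the rule, and the marker genes, were chosen after their values were seen. Alternatives were a replicate block, other filters, a further quantile normalization, median centring, a trended robust prior, array weights, each array left out, other thresholds, medians, and assembly factors added to complex I. Leaving out probe sets whose 10 named neighbours all lie on another chromosome was added after seeing the data.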

Additional observations from a re-analysis of the deposited data

How the results depend on the processing

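No member passed an adjusted p under 0.05 in any fit tried, and 0 passed under 0.1 with all arrays weighted equally, while 4 members had an unadjusted p under 0.05. The adjusted p of Ndufv3 ranged from 0.0926, with array weights, to 0.728, without WKY replicate 2. The number of all probe sets that passed, 15, was 3 with the replicate block, 65 with array weights, 30 at an adjusted p under 0.1 and 2 to 5 with each array left out. Deviations of same-numbered SHR and WKY arrays correlated at 0.354, -0.0786 and 0.228, against -0.321 to 0.166 for arrays of unlike number. The first and last lay above that range, so these values do not settle whether the replicate numbers pair samples. The main fit took no pairing, and the replicate block is the alternative with it. The means of all 5 complexes stayed below 0 in every alternative. The mean over the 74 subunits was -0.25 after quantile normalization and -0.16 after median centring, with 67 and 58 below 0, where the median of all tested probe sets was -0.01 and 0.04. The mean of complex I was -0.16 with the assembly factors and -0.14 without the probe sets whose 10 named neighbours all lie on another chromosome. The sign turned for Atp5mk after quantile normalization (-0.01) and with array weights (-0.09), for Atp5mc3 after median centring (0.03), and with array weights for Ndufa4 (-0.08) and Ndufb3 (0.02); the cause was not tested. Of 93 tested member genes, 82 moved by over 1.5 times or turned sign when 1 array was left out, and 38 turned sign, among them 14 of the 51 that the naming rule takes. The other 24 include Ndufv2, Ndufa12, Ndufc2, Ndufaf1, Ndufaf4, Cox7c, Atp5pd, Atp5f1d and Atp5if1, and their ranges lay between -0.51 and 0.44. The ranges of the 14 with 1 array left out were -0.10 to 0.26 for Ndufs8, -0.39 to 0.14 for Ndufs1, -0.22 to 0.12 for Ndufb9, -0.14 to 0.06 for Ndufb4l4, -0.25 to 0.09 for Sdhc, -0.31 to 0.19 for Uqcrfs1, -0.21 to 0.11 for Cox6a1, -0.25 to 0.05 for Cox7b, -0.25 to 0.17 for Cox5a, -0.11 to 0.19 for Ndufa4, -0.16 to 0.18 for Atp5mk, -0.06 to 0.04 for Atp5mc3, -0.25 to 0.01 for Atp5f1b and -0.12 to 0.13 for Atp5mgl1. With 3 arrays a strain, a difference of the size seen for most subunits could not be told from the spread between arrays.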

Other observations

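Further respiratory chain probe sets name more than 1 gene and were counted in no complex. They are 8, all tested, with differences between -0.33 and 0.11, and the strains overlapped for each. The lowest was that of Ndufa10 or Ndufa10l1, a complex I accessory subunit and its copy, with 7.93, 7.78 and 7.49 in SHR, against 8.56, 7.86 and 7.77 in WKY (adjusted p = 0.923). The highest was that of Ndufs5-ps2 or Ndufs5, at 0.11. The 2 probe sets that name Cox7a2, the common isoform of subunit 7a, and Cox7a2l2 had -0.26 and -0.16.

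On WKY replicate 3, the array with the narrowest spread, the subunits did not move one way. Against the mean of WKY replicates 1 and 2, 16 of 74 were lower by over 0.5 (21.6%) and 8 were higher by over 0.5 (10.8%). The shares over all tested probe sets were 16.6% and 15.4%, but they include dimmer probe sets, and shares at like brightness were not taken. Ndufs4, an accessory subunit of complex I, was lowest in this comparison, at -1.01, and Atp5pd, of the peripheral stalk of complex V, was highest, at 1.33. The Atp5pd value comes from the probe set with neighbours on chromosome 5, where Atp5pd-ps1 is listed, and which of the 2 it measures was not tested.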
